A study of Homo sapiens with 3 samples.

Results

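The 33 genes described here encode cytosolic and mitochondrial chaperones: HSP70 and HSP110 proteins, HSP90 proteins and their partners, J-domain proteins, small heat shock proteins with BAG3, and subunits of both chaperonins. They were taken from a written list, and all 33 were found among the 19866 protein-coding genes of the annotation. For each gene, peaks were sought whose summit (the position of highest signal) lay within 1 kb of either gene end. The peaks come from chromatin immunoprecipitation sequencing of HCT116, a human colorectal cancer cell line, made to overexpress VCP with a Flag tag. The VCP protein, an ATPase, pulls ubiquitin-tagged proteins out of complexes and membranes. There was 1 library precipitated by VCP antibody, 1 by Flag antibody and 1 input library, all from the same kind of formaldehyde-fixed cells after nuclease digestion. No peaks of the input were used here, and none of the 3 libraries had a replicate, so no difference between them could be tested. The labels name no cells without the tagged protein, no treatment and no heat shock. They do not say whether the tagged cells were 1 clone.

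Many chaperones bind unfolded or partly folded proteins and let them go again in cycles driven by ATP. HSP70 takes its substrates from J-domain proteins, HSP90 receives clients from HSP70 through adaptor proteins, and the ring-shaped chaperonins enclose a substrate in a chamber. When unfolded protein builds up, heat shock factor binds repeats of a short element in the promoters of many chaperone genes, and their transcription rises. In cancer cells many of these genes are also transcribed without stress.

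The Flag list placed a summit at 11 of the 33 chaperone genes (33.3%), where 11.7% of all protein-coding genes had one. The VCP list placed a summit at 1 of the 33 (3.03%), against 2.34% of all protein-coding genes. That gene, HSP90AB1, was also the 1 member with a summit of both lists (3.03%, against 0.987%). The VCP share was thus near its background. Genes that HCT116 cells do not transcribe are part of the background, and transcription was not measured here, so its part in the difference was not tested. By role, a Flag summit was found at 4 of 7 genes of HSP90 and its partners, at 3 of 7 genes of the cytosolic chaperonin, at both genes of the mitochondrial chaperonin and at 2 of 8 HSP70 and HSP110 genes. It was found at 0 of 6 J-domain genes and at 0 of 3 genes of the small heat shock group. The counts per role are small, and differences between roles were not tested.

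**Figure D1:**
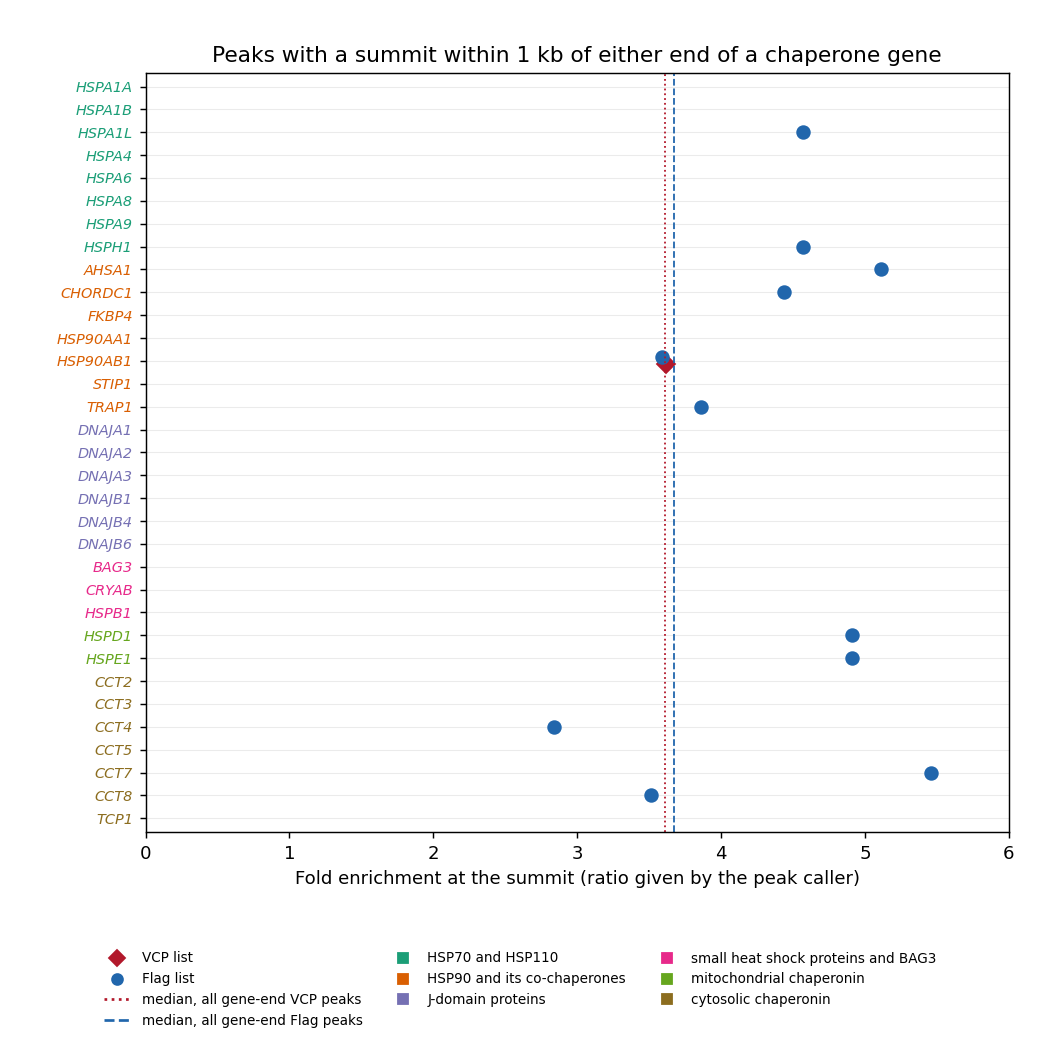
Fold enrichment (x axis, the ratio given by the peak caller) of each peak with a summit within 1 kb of an end of a chaperone gene (y axis, names coloured by role). Circles are the Flag list and the diamond is the VCP list. Genes with no symbol had no such peak. The dashed and dotted lines are the medians of all peaks at protein-coding gene ends, 3.67 in the Flag list and 3.61 in the VCP list. The 11 genes with a Flag circle range from 2.84 to 5.46.

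The promoters below show what lies under or beside these summits. RefSeq promoter windows (GRCh38.p14, 250 bases before to 50 bases after an annotated start) were matched for 31 of the 33 genes, all but CRYAB and FKBP4. They gave 42 windows, because some genes have several starts. The first 5 windows shown each hold a Flag summit, and the last 2, of HSPA8 and HSPA1A, belong to stress gene family members without one within 1 kb. Each is written 5′ to 3′ on the strand of its gene. Capitals mark the heat shock element cores GAANNTTC and TTCNNGAA, each its own reverse complement, and CCAAT on either strand. They run in the order HSPD1 inner start (chr2:197499791-197500090, minus strand), CHORDC1 (chr11:90223000-90223299, minus), AHSA1 (chr14:77457617-77457916, plus), TRAP1 (chr16:3717475-3717774, minus), CCT8 (chr21:29073599-29073898, minus), HSPA8 (chr11:123062087-123062386, minus) and HSPA1A (chr6:31815293-31815592, plus).
HSPD1: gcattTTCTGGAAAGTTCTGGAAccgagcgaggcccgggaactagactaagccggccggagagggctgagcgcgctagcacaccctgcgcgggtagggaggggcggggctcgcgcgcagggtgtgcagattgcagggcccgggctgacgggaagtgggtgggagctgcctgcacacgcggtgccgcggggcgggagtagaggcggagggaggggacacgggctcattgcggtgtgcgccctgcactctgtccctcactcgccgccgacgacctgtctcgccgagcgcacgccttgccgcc
CHORDC1: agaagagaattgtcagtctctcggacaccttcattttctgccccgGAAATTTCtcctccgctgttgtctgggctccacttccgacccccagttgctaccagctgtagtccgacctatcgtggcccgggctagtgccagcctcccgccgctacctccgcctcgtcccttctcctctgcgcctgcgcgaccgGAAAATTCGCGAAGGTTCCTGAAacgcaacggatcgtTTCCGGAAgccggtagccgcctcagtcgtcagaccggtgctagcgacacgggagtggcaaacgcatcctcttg
AHSA1: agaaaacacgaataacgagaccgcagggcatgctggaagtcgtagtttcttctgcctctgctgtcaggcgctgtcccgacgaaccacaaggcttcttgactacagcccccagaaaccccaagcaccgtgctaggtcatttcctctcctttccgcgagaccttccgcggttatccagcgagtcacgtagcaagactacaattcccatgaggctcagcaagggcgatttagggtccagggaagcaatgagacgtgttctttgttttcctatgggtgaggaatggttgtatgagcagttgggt
TRAP1: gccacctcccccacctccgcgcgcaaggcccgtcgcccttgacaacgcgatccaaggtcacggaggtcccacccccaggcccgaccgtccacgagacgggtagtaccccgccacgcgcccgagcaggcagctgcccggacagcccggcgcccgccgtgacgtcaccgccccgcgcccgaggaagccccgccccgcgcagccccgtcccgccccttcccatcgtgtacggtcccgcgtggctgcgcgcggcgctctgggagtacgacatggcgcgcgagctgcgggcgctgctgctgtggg
CCT8: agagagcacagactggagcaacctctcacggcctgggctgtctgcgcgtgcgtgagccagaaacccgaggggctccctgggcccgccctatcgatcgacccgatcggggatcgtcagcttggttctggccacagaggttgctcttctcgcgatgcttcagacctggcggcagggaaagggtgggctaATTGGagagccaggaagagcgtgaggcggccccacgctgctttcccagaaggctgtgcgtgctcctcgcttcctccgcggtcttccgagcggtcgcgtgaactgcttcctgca
HSPA8: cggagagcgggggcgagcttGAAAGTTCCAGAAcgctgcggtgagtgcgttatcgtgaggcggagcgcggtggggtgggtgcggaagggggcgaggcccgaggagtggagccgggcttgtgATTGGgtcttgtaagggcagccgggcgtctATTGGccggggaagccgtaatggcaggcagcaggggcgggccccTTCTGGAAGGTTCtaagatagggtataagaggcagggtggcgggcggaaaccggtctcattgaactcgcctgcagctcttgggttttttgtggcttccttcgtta
HSPA1A: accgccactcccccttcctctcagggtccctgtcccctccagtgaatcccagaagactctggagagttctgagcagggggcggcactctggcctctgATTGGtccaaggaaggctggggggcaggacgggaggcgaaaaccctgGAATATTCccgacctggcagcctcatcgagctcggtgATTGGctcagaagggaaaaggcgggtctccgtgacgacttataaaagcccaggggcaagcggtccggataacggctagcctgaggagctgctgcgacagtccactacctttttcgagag

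HSPD1 and HSPE1 encode the mitochondrial chaperonin and its lid, and stand head to head with their outer starts 105 bp apart on chromosome 2. They shared 1 Flag peak (197499874 to 197500088), so their count of 2 genes rests on 1 piece of chromatin. It had a fold enrichment of 4.91, a -log10 q of 4.49 and 18 reads at its summit (exact Poisson 95% interval 10.7 to 28.4) over a local background of 2.87 reads. Fold enrichment here is the reads plus 1 over the background plus 1. The q-value is the peak caller's p-value corrected for the number of tests, and intervals on reads cover counting error only. The summit lay inside HSPD1, 317 bp past its outer start and 422 bp before the start of HSPE1. Seen from the inner HSPD1 start it lay 117 bp upstream, at base 134 of the window shown. That window opens with heat shock element cores in a row, from base 6 to base 23, and the nearest edge of the row lay 111 bp from the summit. The summit thus fell beside the inner HSPD1 start and not between the outer starts of the pair. A readthrough gene, HSPE1-MOB4, starts within 1 kb of the same summit.

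Among HSP90 and its partners the peak of AHSA1, which encodes an activator of the HSP90 ATPase, had the highest fold enrichment. It spanned 77457807 to 77458005 on chromosome 14, with a fold enrichment of 5.11, a -log10 q of 3.95 and 15 reads (8.40 to 24.7) over a background of 2.13. Its summit lay 42 bp inside the gene, at base 293 of the window shown, and was the nearest to a gene end of all summits at these genes. The start of VIPAS39, which encodes a protein of endosomal sorting, lies 266 bp away on the other strand, and the peak cannot be assigned to either gene alone. The AHSA1 window shown holds neither heat shock core nor CCAAT.

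CHORDC1 encodes morgana, a partner of HSP90. Its Flag peak (90222987 to 90223396 on chromosome 11) had a fold enrichment of 4.44, a -log10 q of 2.81 and 14 reads (7.65 to 23.5) over 2.38. The summit lay 242 bp upstream of the start, at base 9 of the window. The window holds 6 heat shock cores, with the first at base 46 and an unbroken row from base 191 to base 213. The CHORDC1 summit was 37 bp from the nearest core and 182 bp from the row. A lncRNA gene, LOC124902812, starts 110 bp away on the other strand.

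TRAP1, the mitochondrial HSP90, had a Flag peak at 3717324 to 3717721 on chromosome 16, with a fold enrichment of 3.86 and 10 reads (4.80 to 18.4) over 1.85. Its summit lay 137 bp upstream of the start, at base 114. Its -log10 q of 1.29 was just under the value that a q of 0.05 requires. The TRAP1 window was rich in G and C (76.3%) and held neither heat shock core nor CCAAT.

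HSP90AB1 encodes the constitutive cytosolic HSP90, and its promoter region was recovered by both antibodies. The Flag peak spanned 44246436 to 44246900 on chromosome 6, with a fold enrichment of 3.59, a -log10 q of 1.68 and 14 reads (7.65 to 23.5) over 3.17. The VCP peak spanned 44246463 to 44246685 and lay wholly within it, with a fold enrichment of 3.62, a -log10 q of 1.04 and 15 reads (8.40 to 24.7) over 3.42. The read intervals of the peaks overlap. The summits were 70 bp apart, at 254 bp and 324 bp inside the gene from its outer start. HSP90AB1 has 2 further starts downstream, and the heat shock cores found for this gene lie in the window of the innermost one, at least 1330 bp from the Flag summit.

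The other HSP90 gene and adaptors had no summit at an end in either list. For HSP90AA1, the stress-inducible cytosolic HSP90, the nearest Flag summit was 132 kb from a gene end. The distance was 19.0 kb for STIP1, which links HSP70 to HSP90, and 7.44 kb for FKBP4, a co-chaperone of steroid receptors. HSP90AA1 has an inner start whose window holds a row of heat shock cores, and the nearest Flag summit to either of its starts was 139 kb away.

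In the HSP70 group a Flag summit was found at HSPH1 and HSPA1L. HSPH1 encodes HSP110, which releases nucleotide from HSP70. Its peak (31161800 to 31162055 on chromosome 13) had a fold enrichment of 4.57, a -log10 q of 2.51 and 12 reads (6.20 to 21.0) over 1.85. The summit lay 398 bp inside the gene. A lncRNA gene on the other strand, LOC105370148, starts 272 bp from HSPH1 and has an end within 1 kb of this summit. HSPA1L is an HSP70 gene known for its activity in testis. Its peak (31814400 to 31814588 on chromosome 6) also rested on 12 reads over 1.85, which gave it the same fold enrichment and -log10 q as that of HSPH1. This background, found also at TRAP1 and CCT8, is the lowest in the Flag list and was shared by 1796 of its 5692 peaks on chromosomes. The fold enrichments of these peaks therefore differ by their read counts only. Its summit lay 828 bp inside the gene.

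HSPA1L stands head to head with HSPA1A, an inducible HSP70 gene, with starts 260 bp apart. The same summit lay 1088 bp upstream of HSPA1A, just past the 1 kb limit, while 828 bp for HSPA1L was the longest distance that counted. HSPA1A and its near copy HSPA1B had no summit at an end in either list, and the nearest Flag summit to HSPA1B was 13.3 kb away. Counted by any part of the peak within 1 kb, HSPA1A had a Flag peak and HSPA1B did not. The promoter windows of HSPA1A and HSPA1B were identical at 277 of 299 aligned bases (92.6%). How the authors treated reads that match several places is not given in the sources used here, and its part in the lack of summits at these copies was not tested.

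The remaining HSP70 genes had no summit within 10 kb of an end. The nearest Flag summit was 10.4 kb from HSPA9, the mitochondrial HSP70, 13.4 kb from the inducible gene HSPA6, 88.4 kb from HSPA4, an HSP110 relative, and 174 kb from HSPA8, the constitutive HSP70. HSPA8 is among the genes with the most heat shock cores in its window, with 4 in 2 rows beside 2 CCAAT boxes.

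CCT7 had the strongest peak of the 33 genes. The cytosolic chaperonin, built of related subunits, folds actin and tubulin. The CCT7 peak (73234298 to 73234584 on chromosome 2) had a fold enrichment of 5.46, a -log10 q of 5.04 and 17 reads (9.90 to 27.2) over 2.30, and ranked 189 of 5719 in the Flag list by q. Its summit lay 150 bp inside the gene, and no other gene had an end within 1 kb.

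The other chaperonin peaks were weak. CCT8 (29073606 to 29073814 on chromosome 21) had a fold enrichment of 3.51, a -log10 q of 0.813 and 9 reads (4.12 to 17.1) over 1.85, with the summit 107 bp upstream at base 144 and a CCAAT box 44 bp from it. CCT4 (61888474 to 61888753 on chromosome 2) had a fold enrichment of 2.84, a -log10 q of 0.458 and 10 reads (4.80 to 18.4) over 2.87. The CCT4 summit lay 93 bp inside the gene, whose start is 54 bp from that of COMMD1 on the other strand, so this peak is also counted for COMMD1. A TTCNNGAA core lay 33 bp from the CCT4 summit, nearer than the core at CHORDC1. TCP1, CCT2, CCT3 and CCT5 had no summit at an end, with the nearest Flag summits at 51.6, 138, 83.6 and 41.4 kb.

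**Figure D2:**
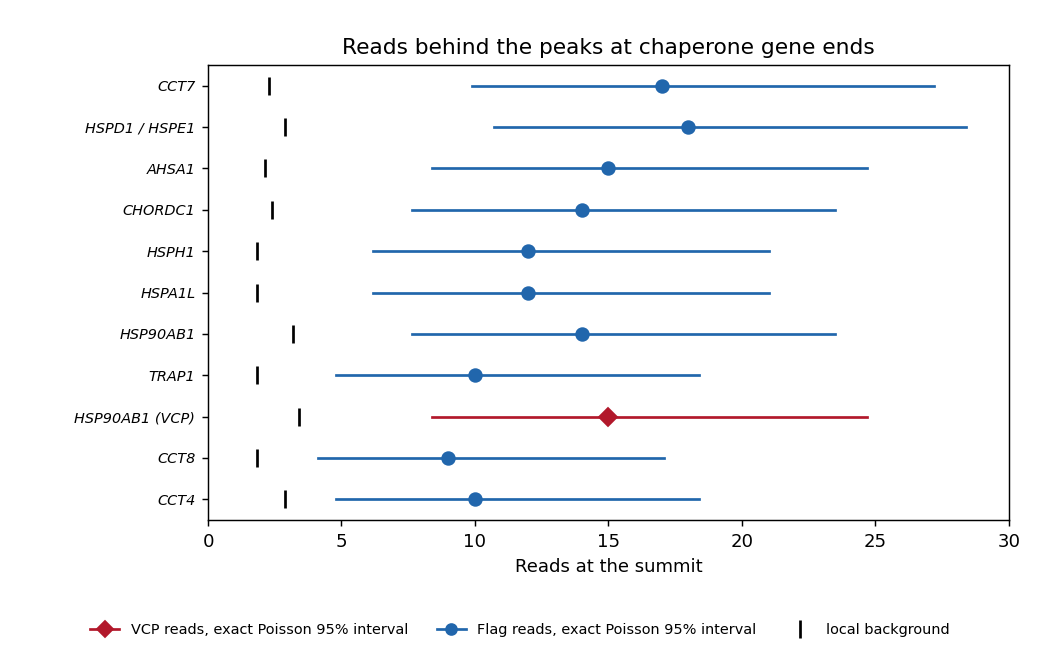
Reads at the summit (x axis) of the 10 Flag peaks (circles) and 1 VCP peak (diamond) at chaperone gene ends (y axis, ordered by -log10 q), with exact Poisson 95% intervals. Black ticks are the local background, which for 4 of the 10 Flag peaks was 1.85, the lowest value in the Flag list. The Flag peaks rest on 9 to 18 reads, and the intervals of all 11 peaks overlap one another. All lie above the background ticks, which follows from calling peaks against that background.

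No J-domain gene of the list had a summit of either antibody at an end. Their products deliver substrates to HSP70 and set off its ATPase. The nearest Flag summit was 251 kb from DNAJA1, 267 kb from DNAJA2, 148 kb from DNAJB6, 296 kb from DNAJB4, 307 kb from DNAJB1 and 19.5 kb from DNAJA3. DNAJB1, DNAJA1, DNAJB4 and DNAJB6 have heat shock cores in their windows, and none had a listed peak of either antibody in the gene or within 100 kb of its ends.

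HSPB1, which encodes the small heat shock protein HSP27, had its nearest Flag summit 2126 bp upstream (fold enrichment 3.42, -log10 q 0.813, 9 reads, 4.12 to 17.1). For CRYAB, another small heat shock protein, the distance was 29.5 kb. It was 380 kb for BAG3, the HSP70 cofactor that acts in selective autophagy, the longest of the 33. HSPD1 had a second Flag summit 2860 bp past its far end (fold enrichment 4.21, 11 reads, 5.49 to 19.7).

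Across the 22 members without a Flag summit at an end, the nearest one lay at a median of 67.6 kb (1.09 to 380 kb), and for 9 of the 22 it was over 100 kb away. Over all 33 members the median was 13.4 kb, beside 89.0 kb for the 19821 protein-coding genes on chromosomes with peaks. For the VCP list these medians were 517 kb and 517 kb. After HSP90AB1 the next VCP summit lay 2813 bp beyond the far end of HSPA1L (fold enrichment 4.20, 12 reads, 6.20 to 21.0), within 1 kb of an end of LSM2, a gene of RNA processing. A gene without a listed peak is not shown to lack VCP, since the weakest listed peaks at gene ends rested on 7 reads.

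**Figure D3:**
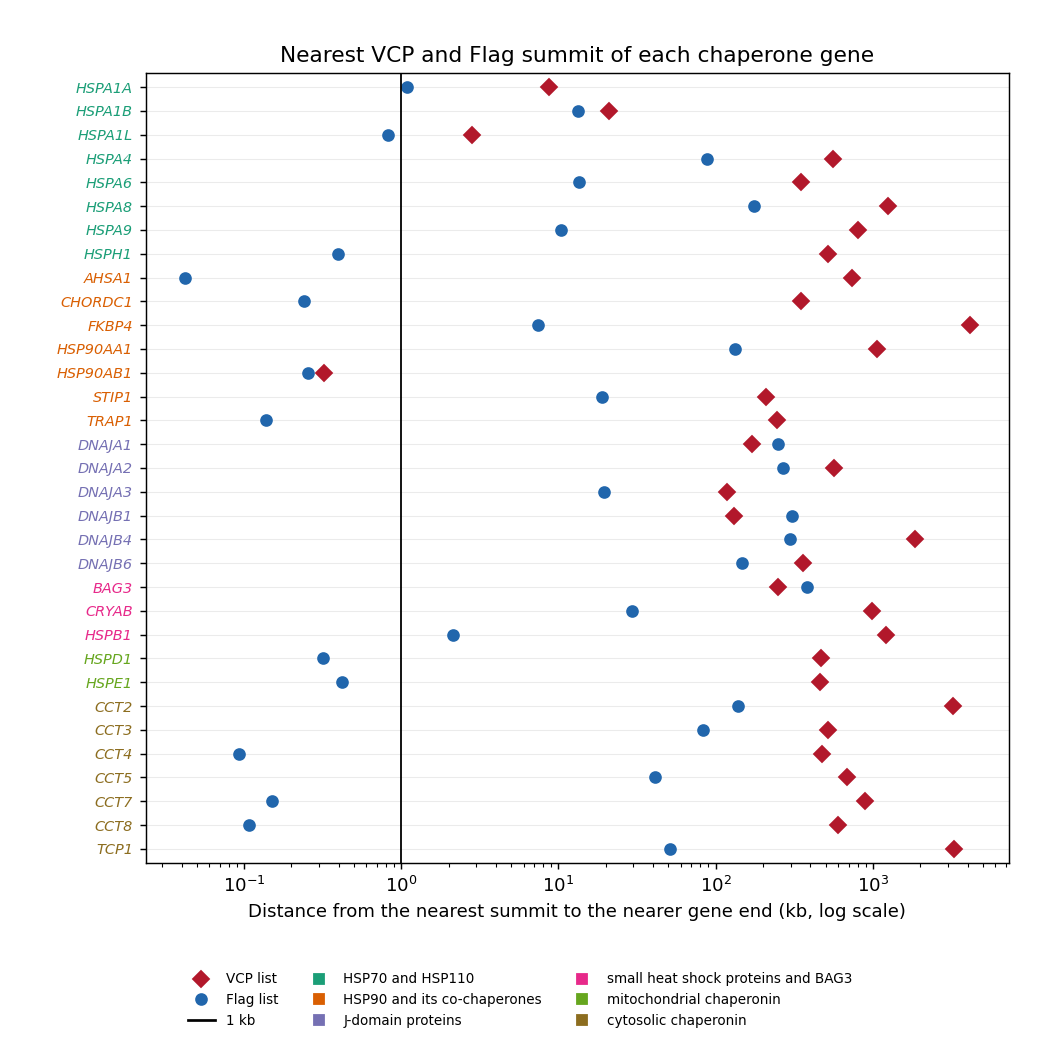
Distance from the nearest summit to the nearer gene end (x axis, kb, log scale) for each chaperone gene (y axis), with circles for the Flag list and diamonds for the VCP list. The line marks 1 kb. To its left lie 11 Flag circles and 1 VCP diamond, that of HSP90AB1, and most diamonds lie beyond 100 kb.

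The 10 Flag peaks at these genes had a median fold enrichment of 4.50 (2.84 to 5.46), beside 3.67 for all 2027 Flag peaks at protein-coding gene ends, and 7 of the 10 were above that median. Of the 10, 7 had a q of 0.05 or lower (70.0%), as did 45.1% of all gene-end Flag peaks. Counted by gene, 8 of the 33 had such a peak (24.2%), beside 5.53% of protein-coding genes. The VCP peak at HSP90AB1 had a fold enrichment of 3.62, beside a median of 3.61 for the 395 VCP peaks at gene ends, and did not reach a q of 0.05. These medians describe the lists and were not tested.

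Of the 10 Flag peaks, 1 overlapped a VCP peak by at least 1 bp (10.0%), where 6.27% of Flag peaks at gene ends did. The 1 VCP peak at these genes overlapped a Flag peak, where 32.4% of VCP peaks at gene ends did. With 1 shared peak, these shares cannot be set apart from the background. The other 9 Flag peaks had their nearest VCP summit between 7.65 kb (HSPA1L) and 913 kb (CCT7) away.

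All 11 genes had their Flag summit at the start and none at the far end. Among the 30 members over 2 kb long with a known strand, 11 had a summit at the start and 0 at the far end. In all such protein-coding genes the shares were 12.1% and 0.751%, so far ends were rarely marked in the genome at large too. Measured from any annotated start, 12.6% of the 15843 protein-coding genes with such a start had a Flag summit within 1 kb, and the same 11 members did. From the nearest start the distance was 42 to 828 bp with a median of 150 bp, and the summit lay inside the gene at 7 genes and outside it at 4.

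**Figure D4:**
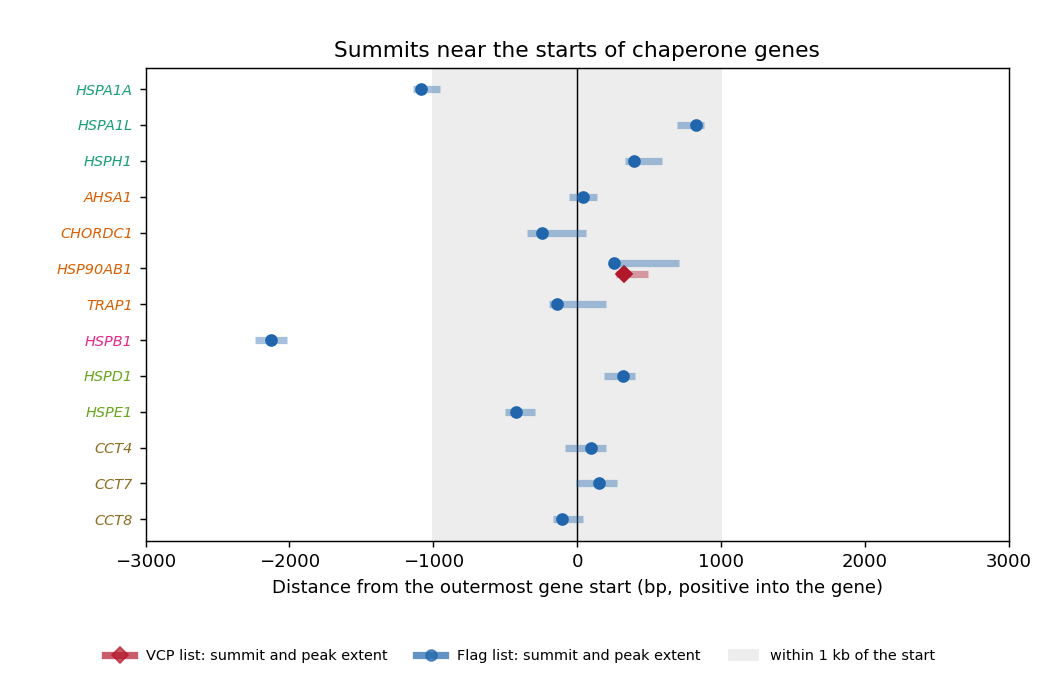
Position of each summit (symbols) and peak (bars) within 3 kb of the outermost gene start (x axis, bp, positive into the gene) for 13 chaperone genes (y axis). The grey band is 1 kb on either side. Flag summits (circles) of 11 genes lie in the band on both sides of the start, HSPA1A lies just left of it and HSPB1 further left. The VCP diamond at HSP90AB1 is 70 bp from the Flag circle.

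Paired starts were common among these genes. A start on the other strand within 1 kb, facing away, was found for 17 of the 31 members with a window, and for 22.1% of protein-coding genes with one. A Flag summit was found at 7 of these 17 members and at 4 of the other 14. In all protein-coding genes with windows the shares were 20.4% with such a partner and 10.1% without. This split was made after the peaks had been seen, and the pairs HSPD1 with HSPE1 and HSPA1L with HSPA1A enter it as 2 genes each.

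Heat shock cores and Flag summits did not mark the same genes one for one. Of the 19 members with either core in a window, 5 had a Flag summit, as did 6 of the 12 members with neither core. A row of at least 3 alternating units, that is GAANNTTC and TTCNNGAA sharing a 3-base repeat, was found in 8 of the 42 member windows (19.0%) and in 0.405% of the 22199 windows of protein-coding genes. The genes were HSPD1, CHORDC1 and HSP90AB1, which had a Flag summit, and HSPA8, HSP90AA1, HSPA6, DNAJA1 and DNAJB6, which had none. So 3 of 8 members with such a row and 8 of 23 members without one had a Flag summit. This split depends on where the windows end. HSPE1 counts as without a row, though it shares its Flag peak with HSPD1, whose row lies just outside the HSPE1 window. HSP90AB1 counts as with a row, though that row lies at least 1330 bp from its Flag summit. Differences in these splits were not tested. Rows included, the core GAANNTTC was found in 38.1% of member windows (5.67% of all), TTCNNGAA in 28.6% (6.73%), CCAAT in 33.3% (34.7%), the Sp factor box GGGCGG in 81.0% (56.3%) and TATAAA in 9.52% (9.47%), each on both strands. Windows that overlap, such as those of HSPA1A and HSPA1L, count a shared match for each gene. Matches describe letters and not binding, and heat shock factor was not measured.

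The wider chaperone network, given by a list of 122 further genes of which 121 were protein-coding in the annotation, had a Flag summit at 26 genes (21.5%) and a VCP summit at 5 (4.13%), against the same backgrounds of 11.7% and 2.34%. Further chaperonin subunits and relatives had 4 of 5. These were CCT6B (fold enrichment 4.38, -log10 q 2.30), CCT6A (2.63, -log10 q 0.248), BBS10 (3.22, -log10 q 0.813) and MKKS (2.81, -log10 q 0.201, 7 reads). CCT6A is a subunit of the cytosolic chaperonin that the list of 33 does not hold. Of the 4, only CCT6B had a q of at most 0.05. The peaks of CCT6A, CCT6B and MKKS also lay at ends of neighbouring genes, among them PSPH for CCT6A and ZNF830 for CCT6B. The remaining HSP90 co-chaperones had 6 of 21, with SUGT1, a partner in kinetochore assembly, at a fold enrichment of 5.27 and 14 reads. Other J-domain proteins had 9 of 36, led by DNAJC11, a mitochondrial membrane protein (fold enrichment 5.37, -log10 q 5.50, 19 reads). Prefoldin, phosducin-like and tubulin chaperones had 4 of 18, among them PFDN4 (3.90), a subunit of the complex that hands actin and tubulin to the chaperonin. Other HSP70 co-chaperones had 3 of 13, with SIL1, an exchange factor of the endoplasmic reticulum, at 3.86 (-log10 q 1.29). Heat shock factors and HSBP1 (0 of 5), the other HSP70 genes including HSPA5 (0 of 8), the other small heat shock proteins (0 of 7) and mitochondrial proteases (0 of 8) had none. At a q of at most 0.05 the network kept 6 genes (4.96%), which is near the 5.53% of all protein-coding genes.

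In the VCP list the 5 were DNAJC7 (fold enrichment 3.75, -log10 q 1.04), DNAJC3 (3.65, -log10 q 0.389), CLPB (3.18, -log10 q 0.206), TBCB (3.28, -log10 q 0.206) and BAG5 (2.47, -log10 q 0.0545). At a q of at most 0.05 the count was 0. TBCB, a tubulin folding cofactor, was the 1 gene of the wider network with a summit of both lists, and its VCP peak (8 reads, -log10 q 0.206, far from a q of 0.05) overlapped its Flag peak (4.92, -log10 q 3.18). That peak is also counted for its neighbour POLR2I, a subunit of RNA polymerase. HSP90AB1 and TBCB were therefore the 2 chaperone genes, of 154 examined in all, with a summit of both lists. For the wider network alone the share was 0.826%, near the 0.987% of all protein-coding genes. The VCP peak of neither gene reached a q of 0.05.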

How the data were processed

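Chromatin immunoprecipitation sequencing gave 1 library per antibody (VCP, Flag) and 1 input. MACS2 2.1.0, Bowtie 1.1.2, Trimmomatic 0.33 and bcl2fastq 2.17 are named, with build hg38, per the submitters' processing notes. Their parameters were not given in the sources used here. Peaks were called per library, and the authors deposited 1816 VCP and 5719 Flag peaks, of which 1803 and 5692 lay on chromosomes 1 to 22, X and Y. Each deposited peak has a fold enrichment, which matched a ratio of reads plus 1 to local background plus 1, and a -log10 p and -log10 q (q-value) that the authors' peak caller wrote. Both lists reach down to a -log10 p of 3.00. The deposited score repeats -log10 p and was not used.

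Reads at a summit were recovered as the whole number whose Poisson tail, with the background set by that ratio, came within 0.001 of the authors' -log10 p, which held for all 1816 and 5719 peaks. Their exact Poisson 95% intervals cover counting error only, since PCR reads are not independent molecules. Genes came from a RefSeq table of GRCh38.p14 (58961 of 59792 rows kept), and starts and strands from the RefSeq promoter table. Lists were compared by an overlap of at least 1 bp. HSPA1A and HSPA1B windows were aligned with free end gaps. No test over samples was possible with 1 library each. The code was tested on simulated data (Python 3.11.15, scipy 1.17.1).

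The members and lists were chosen with earlier results of these data known. Members with a summit at an end, within 3 kb or inside the gene are named with its values, and the others by distance. Of the wider network, genes leading by -log10 q are named, and some with few in a role or with a VCP summit were added after their values were seen. Alternatives were stricter q, other windows, 1 gene per peak, gene bodies, other overlap rules and, chosen after seeing the data, annotated starts.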

Additional observations from a re-analysis of the deposited data

How the results depend on the processing

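The count of 11 chaperone genes with a Flag summit stayed within 8 to 13 genes under most settings, given here with the share of all 19866 protein-coding genes. It was 8 with a q of at most 0.05 (5.53%), 10 within 500 bp (9.90%) and 13 within 3 kb (14.5%). With any part of the peak in the window it was 12 (12.0%), and with 1 gene per peak 10 (9.87%). With gene bodies included it was 11 (17.5%). From annotated starts it was 11 (10.0%, or 12.6% of the 15843 protein-coding genes with such a start). Genes without an annotated start could not be called there, so 12.6% is the fitting share. The gap to the background was thus smaller with gene bodies included. With a -log10 q of at least 5 it was 1 gene, CCT7, beside 0.7% of protein-coding genes. The VCP count of 1 gene, and the count of 1 gene with both lists, went to 0 with a q of at most 0.05. Both were also 0 with a -log10 q of at least 5, and 2 with the 3 kb window, which added HSPA1L. In that order, 0.272%, 0.00503% and 3.04% of all protein-coding genes had a VCP summit. For both lists the shares were 0.111%, 0.0% and 1.35%. The overlap of 1 VCP and 1 Flag peak held with a 50% overlap and with summits within 150 bp, and went to 0 in each direction with a q of at most 0.05. The median fold enrichment of Flag peaks was 4.44 within 500 bp (3.67 for all gene-end peaks), 4.33 within 3 kb (3.60) and 4.57 with a q of at most 0.05 (4.30), where it was nearest to that of all gene-end peaks. That of VCP peaks was 3.91 within 3 kb (3.54). With a q of at most 0.05 no VCP peak was left for a median. These results rest on peaks of 9 to 18 reads in 1 library each, and depth limits what a missing peak shows.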

Other observations

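No chaperone gene gained a summit when the whole gene body was added to the ends. The number of members with a Flag summit was 11 of 33 (33.3%) as before. Over all protein-coding genes it went from 2334 (11.7%) to 3486 (17.5%). For the VCP list the number was 1 (3.03%) as before, beside 464 (2.34%) and 920 (4.63%). With only 33 members, the lack of a gain cannot be set apart from the background. The members are between 1.62 kb (HSPB1) and 80.4 kb (DNAJB6) long, and long genes such as TRAP1 (59.5 kb), HSP90AA1 (59.0 kb) and HSPA4 (54.4 kb) held no summit of either list more than 1 kb inside their ends. Gene length was not matched between the members and the other genes.

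The base composition of member promoters was close to that of other genes, with a median of 63.3% G and C over the 42 member windows (43.7 to 78.7%) and 62.3% over the 22199 windows of protein-coding genes. Among members with a Flag summit it reached from 51.7% (HSPH1) to 76.3% (TRAP1).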
